A study of Mus musculus with 6 samples.

Results

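The nuclear-encoded subunits of the respiratory chain and of the ATP synthase were followed in mesenteric arteries, which feed the intestine. Members were chosen by gene symbol on the array: symbols beginning with Ndufa, Ndufb, Ndufc, Ndufs, Ndufv, Uqcr, Cox4i, Cox5, Cox6, Cox7, Cox8a or Atp5, together with Sdha, Sdhb, Sdhc, Sdhd, Cyc1 and Cycs, and without Ndufaf genes and Ndufa4l2. The rule found 170 of 45037 probe sets, for 81 of 18193 genes. A probe set was kept when its mean normalised level over the 6 arrays was at or above a log2 value of 6.50, the median over probe sets with 1 gene symbol. After this filter 142 member probe sets remained, for 75 of the 10654 genes tested.

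The knockout group was 3 sm22alphaCRE-positive mice with loxP flanked beta1 integrin (animals 72, 73 and 86), and the control group was 3 Cre-negative mice with the same flanked alleles (animals 30, 74 and 75). The background was mixed and included FVB, SVJ129 and C57BL/6, all 6 mice received 14 doses of 1 mg tamoxifen from 5 weeks of age, and all were 7 weeks old. The SM22alpha promoter drives expression in smooth muscle, whereas the RNA came from whole arteries cleared of adipose and lymph tissue, with 1 array per mouse. The titles give the letter F to animal 86 and M to the other 5. The comparison addresses how arteries differ once beta1 integrin has been removed from smooth muscle. Cre itself also differs between the groups, and its part cannot be told apart from that of beta1 integrin loss. The animal marked F was a knockout.

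The respiratory chain passes electrons from NADH through complex I, or from succinate through complex II, to complex III, cytochrome c and complex IV, where oxygen is reduced. Complexes I, III and IV pump protons across the inner mitochondrial membrane, and the ATP synthase uses their return flow to make ATP. Most subunits are encoded in the nucleus and are transcribed under shared factors such as NRF1, GABPA, the oestrogen-related receptors and YY1, with the coactivators PGC-1alpha and PGC-1beta.

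Of the 75 members tested, 72 had a lower mean in knockout than in control arteries, and the median log2 difference was -0.29. Among all genes tested 56.9% were lower and the median was -0.05. The members' differences were small, and 0 passed a limma adjusted p of 0.05 on the lower side, where 0.657% of all genes did. By the same test 1 member rose, Cox6b2, against 1.76% of all genes. At an unadjusted p under 0.05, 15 members (20%) were lower, against 11.5% of all genes, and 1 was higher, against 9.86%. In 31 members (41.3%) all knockout arrays lay below all control arrays, against 15.1% of all genes.

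One control array stood high for these genes. Control 74 had the highest value of the 6 arrays in 61 of 75 members (81.3%), against 24.6% of all genes, and exceeded the mean of controls 30 and 75 by a median of 0.37 over members and 0.01 over all genes. The mean member level was 11.30, 11.13 and 11.11 in knockout arrays 72, 73 and 86, against 11.29, 11.69 and 11.36 in control arrays 30, 74 and 75. Without control 74, 64 of 75 members were lower, with a median of -0.16, while 55.6% of all genes were lower.

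**Figure D1:**
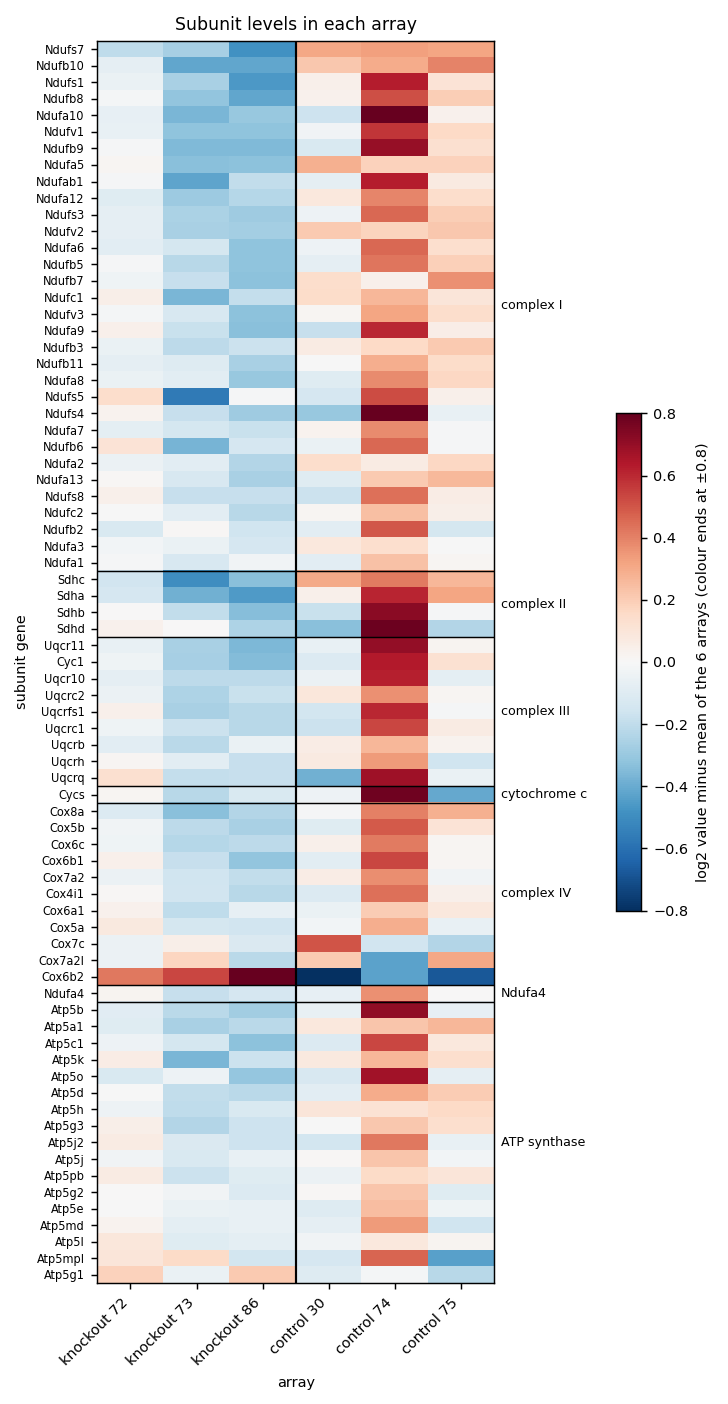
Each row is a subunit gene and each column an array, knockout arrays on the left and control arrays on the right, and colour shows the log2 value minus the gene's mean over the 6 arrays, with colours ending at 0.8 in either direction. Control 74 holds the highest value in 61 of 75 rows, and Cox6b2 is the 1 complex IV row with a higher mean in knockout than in control arrays.

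Knockout 72 and control 30 lay close together. The median deviation of members from their 6-array mean was -0.02, -0.19 and -0.22 in knockout arrays 72, 73 and 86, and -0.04, 0.38 and 0.05 in control arrays 30, 74 and 75. By this measure knockout 72 lay slightly above control 30. Over all genes tested the same deviation stayed between -0.04 and 0.05.

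Adipocyte genes varied between the same arrays. The 12 white adipocyte markers tested had mean levels of 11.06, 10.97 and 10.09 in knockout arrays 72, 73 and 86, against 10.20, 12.00 and 11.58 in control arrays 30, 74 and 75. Of these markers 12 of 12 had a lower mean in knockout arteries, with 0 past the limma threshold. At an unadjusted p under 0.05 there were 2 (16.7%), against 11.5% of all genes. Of 10 brown adipocyte markers on the array, 5 lay above the filter, of which 3 were lower and 2 higher with a median of -0.10. By limma 0 of the 5 passed the threshold, and at an unadjusted p under 0.05 there were 0 lower and 1 higher. That 1 was Dio2, a deiodinase that activates thyroid hormone, at 11.03, 9.93 and 10.46 in the knockout arrays against 7.60, 9.12 and 9.10 in the control arrays, a difference of 1.87 (SE 0.46, adjusted p = 0.0928). The other 4 had overlapping groups: Cox8b differed by -0.99, Prdm16 by -0.36, Ppara by -0.10 and Kcnk3 by 0.04.

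The markers below the filter were Ucp1, Cidea, Otop1, Elovl3 and Zic1. Ucp1, the uncoupling protein of brown fat, had a log2 value of 3.67, 4.70 and 3.96 in the knockout arrays and 6.12, 8.45 and 5.01 in the control arrays. Cidea, a lipid droplet protein of thermogenic fat, stood at 5.62, 5.07 and 4.44 in the knockout arrays and at 6.62, 9.65 and 7.28 in the control arrays. Elovl3 differed little, at 5.63 to 5.66 in knockout and 5.78 to 5.84 in control arrays. Otop1 differed by -1.54 and Zic1 by -0.75. Control 74 was the highest array for Ucp1, Cidea, Otop1, Cox8b, Ppara and Kcnk3, while control 30 was the highest for Prdm16 and Zic1, control 75 for Elovl3 and knockout 72 for Dio2.

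With the white adipocyte list as a covariate 70 of 75 members were lower, with a median of -0.18. The brown adipocyte list was used in 2 forms as a covariate, both added after the data were seen, and the results differed. Both forms hold Cox8b, a complex IV subunit isoform outside the symbol rule, so neither covariate is independent of respiratory chain genes. With the mean of all 10 markers, 5 of them below the filter, 44 of 75 members were lower with a median of -0.03, against 52.9% and -0.02 for all genes. With the mean of the 5 markers above the filter, 72 of 75 were lower with a median of -0.34, and Ndufs7, Sdha and Sdhc passed the threshold on the lower side (limma adjusted p = 0.0473, 0.0335 and 0.0486). The mean of all 10 was 7.00, 6.85 and 6.59 in knockout arrays and 6.95, 8.28 and 7.37 in control arrays, and that of the 5 was 9.27, 9.06 and 8.95 in knockout arrays and 8.44, 9.48 and 9.08 in control arrays. In whole arteries, fewer cells of a type and less RNA per cell cannot be told apart.

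**Figure D2:**
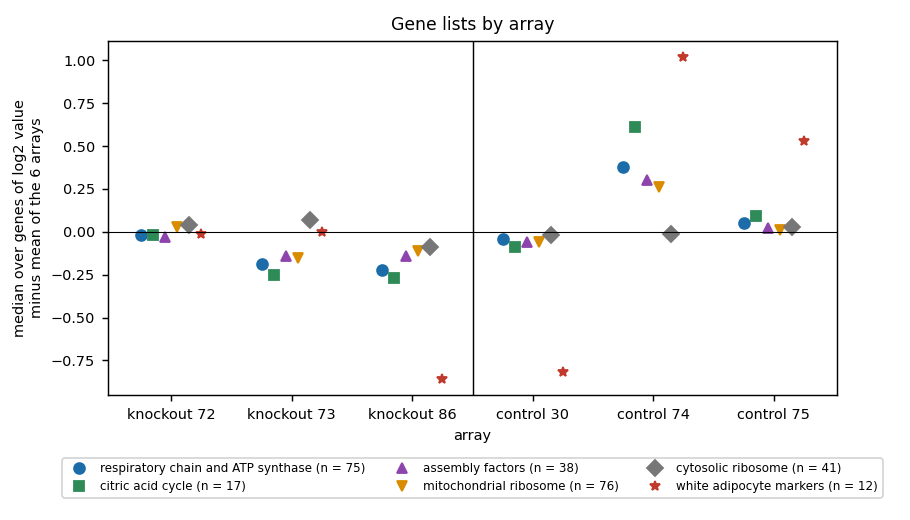
Points give, for each array on the x axis, the median over a gene list of the log2 value minus the gene's mean over the 6 arrays (y axis), with knockout arrays to the left of the line and control arrays to the right. Control 74 is the highest array for the subunits (0.38), the citric acid cycle list (0.61) and the white adipocyte markers (1.02), while the cytosolic ribosome stays between -0.09 and 0.07.

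The other cell types of the vessel wall differed between groups too. Smooth muscle markers were present at high levels on every array, with means of 11.99 to 12.37 in knockout and 12.12 to 12.73 in control arteries. Of these markers 8 of 10 were lower in knockout arteries, with 0 past the limma threshold. At an unadjusted p under 0.05, 3 (30%) were lower, with groups that did not overlap: Lmod1 at -1.20, Myh11 at -0.46 and Tagln at -0.33. The 10 endothelial markers were lower in 10 of 10 cases and the 11 macrophage markers higher in 11 of 11, with 0 of either list past the limma threshold and 4 and 9 at an unadjusted p under 0.05, while 7 of 7 proliferation markers rose. At that unadjusted p, 11.5% of all genes were lower and 9.86% higher. Of 8 fibroblast markers 6 were higher, 4 of them at an unadjusted p under 0.05, and 1 rose past the threshold, Col1a1, a chain of type I collagen (1.23, limma adjusted p = 0.0309). The striated muscle markers above the filter, 5 of 16 on the array, were lower in 5 of 5 cases with a median of -0.72 and 0 past the threshold, 1 at an unadjusted p under 0.05. Of 3 nerve markers 2 were lower, the Schwann cell genes S100b at -0.60 and Mbp at -0.69, both with groups that did not overlap (limma adjusted p = 0.0747 and 0.147). Of 3 lymphatic and immune cell markers 3 were higher, with 0 past the threshold. Over macrophage markers the mean level was 9.02 to 10.55 in knockout and 7.83 to 8.53 in control arteries, and with that list as a covariate 71 of 75 subunits were lower. Itgb1, the targeted gene, stood at 10.51, 10.56 and 10.76 in knockout arrays and at 11.80, 11.04 and 11.20 in control arrays, a difference of -0.73 (limma SE 0.22, adjusted p = 0.127). The part of the endothelial, proliferation, smooth muscle, fibroblast, striated muscle, nerve and lymphatic shifts in the subunit differences was not tested.

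Promoter letters are shown for 1 member of each complex, the one with the smallest p among those found in the RefSeq promoter table, because subunit promoters are known to share a few factor motifs. Each run is the 150 bases before the annotated start on GRCm38.p6, 5′ to 3′ on the gene's strand, and capitals mark a match to a motif.
Ndufs7 (complex I, chr10:80249299-80249448, plus strand): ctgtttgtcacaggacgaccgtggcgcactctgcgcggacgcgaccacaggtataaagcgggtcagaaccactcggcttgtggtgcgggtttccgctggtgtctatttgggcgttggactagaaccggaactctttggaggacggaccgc
Sdha (complex II, chr13:74350241-74350390, minus strand): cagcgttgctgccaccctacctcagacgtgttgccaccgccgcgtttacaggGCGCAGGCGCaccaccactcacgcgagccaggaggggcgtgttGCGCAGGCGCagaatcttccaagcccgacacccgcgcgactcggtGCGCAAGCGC
Uqcr11 (complex III, chr10:80406822-80406971, minus strand): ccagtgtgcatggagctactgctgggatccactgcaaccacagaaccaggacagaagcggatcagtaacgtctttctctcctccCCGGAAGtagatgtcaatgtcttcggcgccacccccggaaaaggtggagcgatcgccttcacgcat
Cox6b2 (complex IV, chr7:4753095-4753244, minus strand): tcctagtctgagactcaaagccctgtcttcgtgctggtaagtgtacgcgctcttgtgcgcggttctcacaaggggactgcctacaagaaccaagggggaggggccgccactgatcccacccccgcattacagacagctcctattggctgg
Atp5h (ATP synthase, chr11:115419920-115420069, minus strand): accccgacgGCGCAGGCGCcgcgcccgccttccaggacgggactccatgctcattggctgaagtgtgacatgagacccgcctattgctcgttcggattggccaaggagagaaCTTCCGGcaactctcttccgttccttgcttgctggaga

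The motifs searched, on both strands, were the NRF1 motif, CCGGAAG for ETS factors such as GABPA, AAGGTCA for the oestrogen-related receptors and AAGATGGCG for YY1, and in these runs no match overlapped another. The Sdha run holds the NRF1 letters 3 times, beginning 98, 55 and 10 bases before the start. The Atp5h run holds the NRF1 letters at 141 and the ETS letters at 38 bases before the start, and the Uqcr11 run holds the ETS letters at 66. In the Ndufs7 and Cox6b2 runs none of these letters occur, although Ndufs7 holds the YY1 letters from position 25 after the start, beyond its run.

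Promoters from 250 bases before to 50 after the start were found for 67 of the 81 member genes. The NRF1 letters occurred in 22.4% of them, against 5.19% of the promoters of all 27025 genes, and the ETS letters in 25.4%, against 9.93%. The oestrogen-related receptor letters occurred in 11.9% of member genes against 5.38% of all genes, and the YY1 letters in 8.96% against 1.64%. At least 1 of the 4 occurred in 34 member genes (50.7%), against 19.9% of all genes. A match describes letters and not a bound site.

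Complex I oxidises NADH and hands the electrons to ubiquinone. All 32 subunits tested, of 34 on the array, had a lower mean in knockout arteries, with a median of -0.33. Of these, 11 (34.4%) reached an unadjusted p under 0.05 by limma, against 11.5% of all genes on the lower side. In 19 (59.4%) all knockout arrays lay below all control arrays, against 15.1% of all genes. Control 74 was the highest array in 25 of the 32. The 6 subunits of the conserved core measured under 1 symbol, a grouping made after the values were seen, were lower in 6 of 6 cases with a median of -0.44, and 5 of the 6 had groups that did not overlap.

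Ndufs7, a core subunit that carries the last iron-sulfur cluster before ubiquinone, had log2 values of 10.84, 10.78 and 10.56 in knockout arrays and 11.35, 11.37 and 11.36 in control arrays. The deposited intensities behind them were 1832, 1733 and 1563 in knockout arrays against 2562, 2784 and 2575 in control arrays. The groups did not overlap, and the 3 control arrays differed by less than any knockout array did from them. The difference was -0.64 (SE 0.13), or 64.3% of control (95% confidence interval 52.3 to 79.0), with a limma adjusted p of 0.0551. Its other probe set above the filter differed by -0.52, with 10.64, 10.31 and 10.22 in knockout against 10.72, 11.15 and 10.88 in control arrays.

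Ndufb10, an accessory subunit of the membrane arm, stood at 10.58, 10.24 and 10.24 in knockout and at 10.87, 10.95 and 11.05 in control arrays. The groups did not overlap and control 75 was highest, with a difference of -0.60 (SE 0.14, limma adjusted p = 0.0841). Ndufv2, an iron-sulfur subunit of the NADH-oxidising module, stood at 10.98, 10.79 and 10.78 in knockout and at 11.26, 11.23 and 11.27 in control arrays, a difference of -0.40 (SE 0.12, limma adjusted p = 0.127). Ndufa5, an accessory subunit of the peripheral arm, stood at 10.60, 10.25 and 10.26 in knockout and at 10.87, 10.77 and 10.77 in control arrays, a difference of -0.43 (SE 0.14, limma adjusted p = 0.150). In the probe sets used for these 4 genes control 74 was not set apart from the other control arrays. Control 74 was, however, the highest array in the other probe sets of Ndufs7, Ndufv2 and Ndufa5 above the filter. For Ndufv2, control arrays 30, 74 and 75 stood at 11.07, 11.35 and 11.04 in such a probe set, and at 10.98, 11.07 and 11.06 in another. For Ndufa5 they stood at 10.73, 10.94 and 10.53.

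In the other core subunits control 74 was the highest array. Ndufs1, the largest core subunit of the peripheral arm, differed by -0.51 (limma adjusted p = 0.200), with 10.83 in control 74 against 10.24 and 10.31 in the other control arrays. Ndufv1, which binds NADH and flavin, differed by -0.47, and Ndufs3 by -0.41, both with groups that did not overlap and a limma adjusted p of 0.210. The groups were close, with knockout 72 at 10.43 against control 30 at 10.46 for Ndufv1, and 10.72 against 10.75 for Ndufs3. A further Ndufv1 probe set, with a difference of -0.40, had overlapping groups. Ndufs8 differed by -0.22, with overlapping groups. At the small end, Ndufa1 differed by -0.11 (95% confidence interval -0.42 to 0.21) and Ndufa3 by -0.14 (-0.42 to 0.13).

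**Figure D3:**
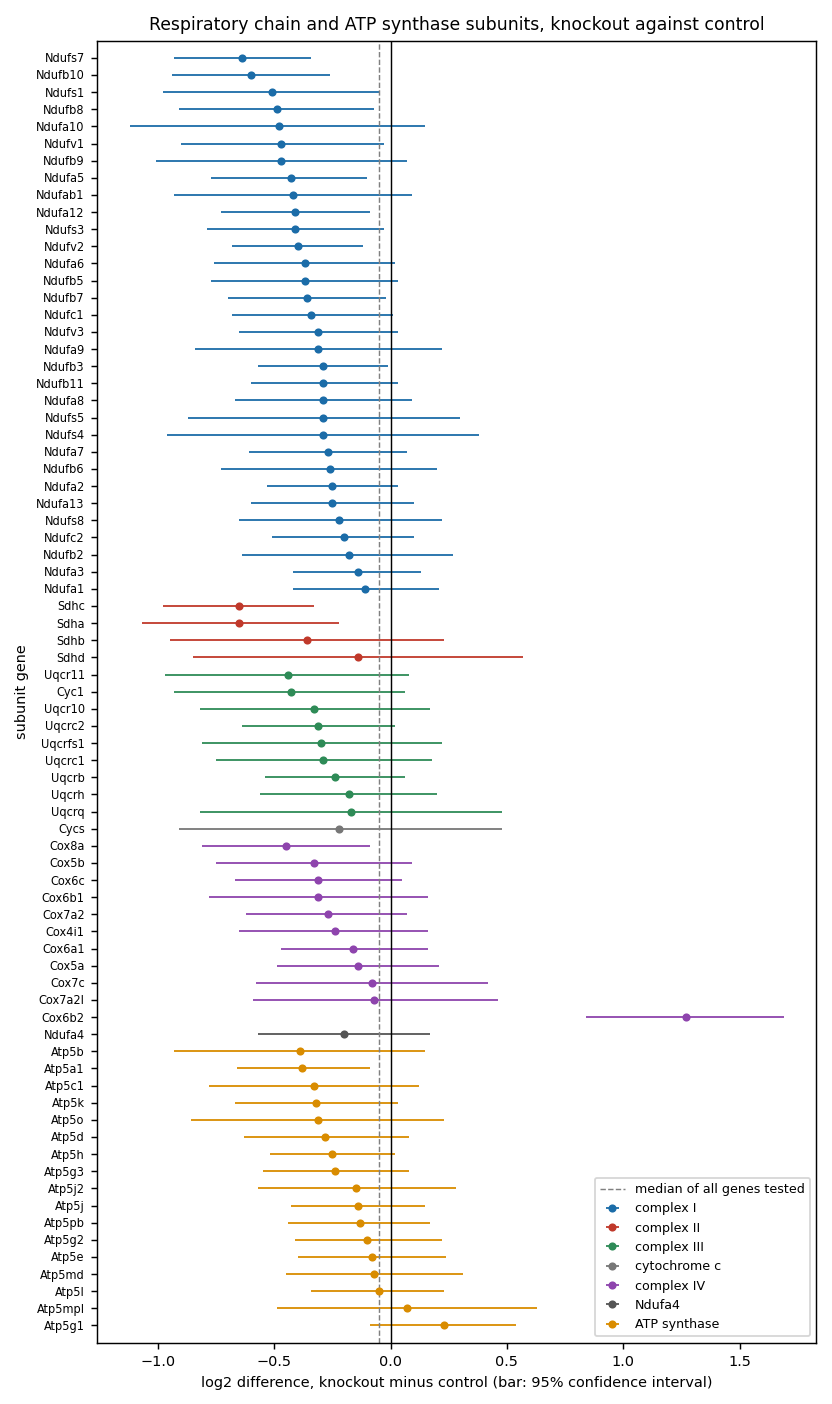
Points give the log2 difference, knockout minus control (x axis), of each of the 75 subunit genes (rows, coloured by complex), bars are 95% confidence intervals from the limma fit, and the dashed line is the median of all genes tested at -0.05. Points lie below 0 for 72 of 75 genes, and Cox6b2 lies at 1.27.

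Complex II, succinate dehydrogenase, is shared by the chain and the citric acid cycle. Its 4 subunits were lower in 4 of 4 cases with a median of -0.50, and control 74 was the highest array in each. Sdhc, a membrane anchor, stood at 9.91, 9.57 and 9.73 in knockout arrays and at 10.37, 10.48 and 10.33 in control arrays, from deposited intensities of 974, 760 and 881 against 1298, 1455 and 1245. The groups were well apart, with a difference of -0.65 (SE 0.14), or 63.5% of control (50.8 to 79.4), and a limma adjusted p of 0.0620. Its other probe set gave -0.64.

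Sdha, the flavoprotein that oxidises succinate, stood at 11.08, 10.83 and 10.76 in knockout arrays and at 11.25, 11.82 and 11.53 in control arrays, a difference of -0.65 (SE 0.18, limma adjusted p = 0.117). The groups did not overlap, but the control arrays spread more than those of Sdhc. Sdhb, the iron-sulfur subunit, stood at 10.88, 10.68 and 10.54 in knockout and at 10.70, 11.60 and 10.87 in control arrays, a difference of -0.36 (limma adjusted p = 0.442). Sdhd, the second anchor, stood at 9.82, 9.79 and 9.54 in knockout and at 9.45, 10.57 and 9.55 in control arrays, a difference of -0.14 (limma adjusted p = 0.823). In Sdhb and Sdhd only control 74 stood above all knockout arrays, and without it Sdhd differed by 0.22.

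Complex III takes electrons from ubiquinol to cytochrome c. Its 9 subunits were lower in 9 of 9 cases with a median of -0.30, control 74 was the highest array in each, and 0 reached an unadjusted p under 0.05. Without control 74 the median was -0.10. Uqcrc2, a core protein, stood at 11.20, 11.00 and 11.07 in knockout and at 11.34, 11.61 and 11.26 in control arrays, a difference of -0.31 (SE 0.14, limma adjusted p = 0.259). Uqcrb, a small subunit near the ubiquinone site, stood at 13.28, 13.15 and 13.31 in knockout and at 13.42, 13.63 and 13.39 in control arrays, a difference of -0.24 (SE 0.13). These 2 (22.2%) were the complex III genes with groups that did not overlap in the probe set used, against 15.1% of all genes on the lower side. The other Uqcrb probe set above the filter differed by -0.11 with overlapping groups. In that of Uqcrc2, which differed by -0.32, knockout 72 and control 30 both stood at 10.87.

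Cyc1, the haem-bearing cytochrome of the complex, stood at 11.20, 10.97 and 10.89 in knockout and at 11.13, 11.87 and 11.36 in control arrays, a difference of -0.43 (SE 0.21, limma adjusted p = 0.278). Uqcr11, a small accessory subunit, differed by -0.44 (SE 0.22), with 10.74, 10.54 and 10.44 in knockout against 10.74, 11.50 and 10.82 in control arrays. In both, knockout 72 reached control 30. Cycs, the mobile carrier cytochrome c, stood at 11.79, 11.55 and 11.65 in knockout and at 11.73, 12.55 and 11.36 in control arrays, and its difference was -0.22 (limma adjusted p = 0.701) and 0.12 without control 74.

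Complex IV, cytochrome c oxidase, had 11 of 15 subunit genes above the filter. Of these, 10 were lower, with a median of -0.24 over the 11, and 1 rose. Cox6b2, an isoform of a subunit on the cytochrome c side that is known mainly from testis, stood at 8.06, 8.17 and 8.57 in knockout arrays and at 6.84, 7.21 and 6.96 in control arrays. The deposited intensities were 276, 290 and 388 in knockout arrays against 113, 140 and 119 in control arrays. The groups were far apart, with a difference of 1.27 (SE 0.18), or 2.4-fold, and a limma adjusted p of 0.0223.

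Cox6b2 passed the threshold in 1 of the 6 fits that left out an array, the one without control 74 (limma adjusted p = 0.0300). Over these fits the difference ranged between 1.12 and 1.38 and the adjusted p reached 0.0883. Cox6b1, the widely expressed isoform, differed by -0.31 (SE 0.20), with 12.60, 12.37 and 12.24 in knockout against 12.47, 13.09 and 12.57 in control arrays.

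Cox8a, a small membrane subunit, stood at 11.97, 11.74 and 11.84 in knockout and at 12.07, 12.48 and 12.36 in control arrays, a difference of -0.45 (SE 0.15, limma adjusted p = 0.155) with no overlap. Cox6c differed by -0.31 and Cox5b, a zinc-binding subunit, by -0.33, with limma adjusted p-values of 0.287 and 0.322. Cox7a2l, a factor that joins complexes III and IV into supercomplexes, went its own way in the probe set used, at 11.65, 11.87 and 11.48 in knockout and 11.91, 11.27 and 12.01 in control arrays. There control 74 was the lowest array. Its other 2 probe sets above the filter differed by -0.23 and -0.21, and in both control 30 was the lowest control array. Cox7c was represented by a dim probe set with a mean of 6.85, and its difference of -0.08 describes that probe set. Ndufa4, first named as a complex I subunit and now known to belong to complex IV, differed by -0.20 (limma adjusted p = 0.490), with control 74 highest.

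The muscle-type isoforms Cox7a1 and Cox6a2, and Cox4i2, lay below the filter. Cox7a1, the heart and skeletal muscle form of its subunit that is also known from brown fat, stood at 5.50, 5.25 and 5.81 in knockout and at 6.37, 7.53 and 5.87 in control arrays. Cox6a2, the striated muscle form, stood at 6.25, 6.26 and 6.50 in knockout and at 6.00, 5.70 and 5.85 in control arrays. Cox4i2, a form known from lung and from oxygen-sensing cells, stood at 4.64, 5.06 and 4.07 in knockout and at 4.65, 5.29 and 5.01 in control arrays. Cox7a1 was lower in every knockout array than in any control array, and Cox6a2 was higher, whereas the groups of Cox4i2 overlapped. A second Cox6a2 probe set, dimmer still, had overlapping groups.

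The change of each such isoform was set against that of its widely expressed partner within each array. Cox6a2 minus Cox6a1 shifted by 0.64 (exact permutation p = 0.1, adjusted p = 0.3 over 3 pairs), Cox7a1 minus Cox7a2 by -0.80 (exact permutation p = 0.2, adjusted p = 0.3), and Cox4i2 minus Cox4i1 by -0.15 (exact permutation p = 0.7, adjusted p = 0.7). With 3 arrays against 3, the smallest 2-sided p this test allows is 0.1. The other members below the filter were Cox7b2, with a mean of 4.64, Ndufb1, with a mean of 5.55, and Ndufb4, with a mean of 4.93.

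**Figure D4:**
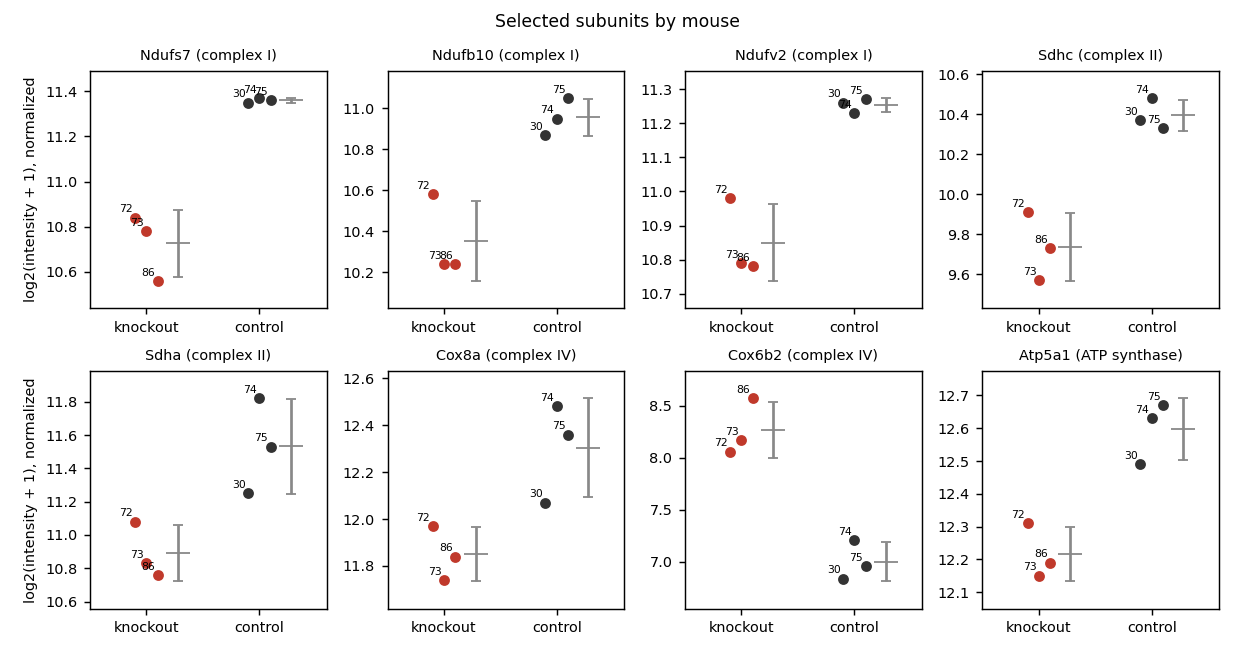
Each panel gives a subunit's normalised log2(intensity + 1) by mouse, knockout left of control, with animal numbers beside the points and bars for the mean ± SD of 3 arrays; the y axes do not start at 0 and differ between panels. In Ndufs7 the control arrays lie between 11.35 and 11.37, above all knockout arrays, and in Cox6b2 the knockout arrays lie above all control arrays.

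The ATP synthase had all 17 genes above the filter, of which 15 were lower, with a median of -0.15. In 5 of the 17 (29.4%) all knockout arrays lay below all control arrays, against 15.1% of all genes. Atp5a1, the alpha subunit of the catalytic head, stood at 12.31, 12.15 and 12.19 in knockout and at 12.49, 12.63 and 12.67 in control arrays. Control 75 was highest and the groups did not overlap, with a difference of -0.38 (SE 0.12), or 77.1% of control (63.2 to 94.0), and a limma adjusted p of 0.146. The other Atp5a1 probe sets above the filter had overlapping groups. They differed by -0.26, with control 74 the highest array, and by -0.49, with control 74 the lowest. Atp5b, the catalytic beta subunit, differed by -0.39 (SE 0.23), with 11.99, 11.86 and 11.80 in knockout against 12.02, 12.79 and 12.01 in control arrays.

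The 5 subunits of the catalytic head and central stalk were lower in 5 of 5 cases with a median of -0.33. Of the 3 genes of the membrane c ring 2 were lower, with a median of -0.10. That grouping was made after the values were seen. Atp5h, a subunit of the peripheral stalk, stood at 11.88, 11.72 and 11.80 in knockout and at 12.02, 12.04 and 12.08 in control arrays, a difference of -0.25 (SE 0.11, limma adjusted p = 0.259). Atp5k differed by -0.32 and Atp5d, the delta subunit of the central stalk, by -0.28, with limma adjusted p-values of 0.267 and 0.329. Atp5g1, which encodes the c subunit, was one of the pair with a higher mean, at 10.15, 9.91 and 10.17 in knockout and 9.86, 9.95 and 9.74 in control arrays (0.23, SE 0.13, limma adjusted p = 0.367). The other was Atp5mpl, at 0.07.

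**Figure D5:**
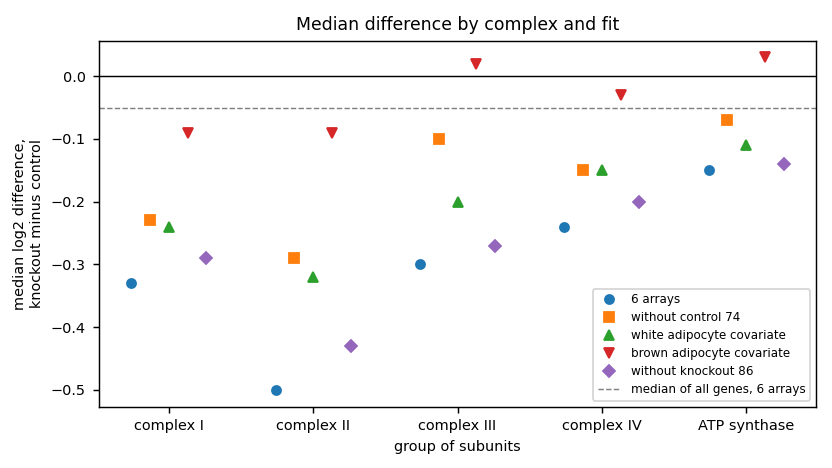
Points give the median log2 difference, knockout minus control (y axis), of each complex (x axis) in the fit of all 6 arrays and in fits without control 74, without knockout 86 and with the white adipocyte markers or all 10 brown adipocyte markers as a covariate. Medians without control 74 run between -0.29 and -0.07, and those with the brown adipocyte covariate between -0.09 and 0.03.

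The members were also divided, after the values were seen and with no test, by how far the 3 control arrays spread. In 19 members the controls spanned under 0.25 on the log2 scale, the median difference was -0.25, and 15 of the 19 had groups that did not overlap, against 22.2% of all genes with such a span. In 33 members the controls spanned 0.5 or more, control 74 was highest in 31, the median was -0.31, and 4 of the 33 had groups that did not overlap, against 9.3% of all genes with such a span. A narrow span of the controls itself makes an overlap less likely, and the medians of these sets were alike. Ndufs7, Sdhc, Ndufb10, Ndufv2, Atp5a1 and Ndufa5 belonged to the 19 by the probe set used for each. In another probe set of Ndufs7, Sdhc, Ndufv2, Atp5a1 and Ndufa5 the controls spanned more than 0.25. For Sdhc, control arrays 30, 74 and 75 stood there at 9.13, 9.58 and 9.18. A further Ndufv2 probe set stayed under 0.25. With all 10 brown adipocyte markers as a covariate Ndufs7 differed by -0.59, Ndufb10 by -0.54 and Sdhc by -0.57, and with the 5 above the filter by -0.64, -0.62 and -0.67 for these genes in turn.

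Neighbouring mitochondrial genes were read from the same fit. The citric acid cycle list also held pyruvate dehydrogenase subunits and Pdk4, a kinase of that complex. The list was lower in 17 of 17 genes with a median of -0.38 and 0 past the threshold, and control 74 was highest in 15. The lowest difference in the list was that of Pdk4, at -1.06 with overlapping groups. Its smallest p belonged to Suclg2, a subunit of succinyl-CoA ligase, at -0.74 (limma adjusted p = 0.170). Assembly factors were lower in 31 of 38 genes with a median of -0.20 and 0 past the threshold. Uqcc1, a complex III assembly factor, differed by -0.66 and its partner Uqcc2 by 0.41, each with groups that did not overlap (limma adjusted p = 0.118 and 0.135). The mitochondrial ribosome was lower in 64 of 76 genes with a median of -0.13, and the cytosolic ribosome in 17 of 41 with a median of 0.01. Protein import was lower in 8 of 20 genes with a median of 0.01, and carriers and inner membrane proteins in 8 of 11 with a median of -0.11. Neither these nor the ribosome lists had a gene past the threshold. At an unadjusted p under 0.05 by limma, 4 genes of the citric acid cycle list (23.5%) and 3 assembly factors (7.89%) were lower. So were 3 genes of the mitochondrial ribosome (3.95%) and 1 of the carriers and inner membrane proteins, Opa1 (9.09%). The share of all genes was 11.5%. On the higher side there were 1 assembly factor, Uqcc2, 1 import gene, Timm17b, and 1 cytosolic ribosome gene, Rpl12, against 9.86% of all genes.

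Regulators of mitochondrial gene expression were lower in 13 of 18 genes with a median of -0.10, and 0 passed the limma threshold. At an unadjusted p under 0.05, 3 regulators (16.7%) were lower, against 11.5% of all genes. Ppargc1b, which encodes PGC-1beta, stood at 8.79, 8.70 and 7.31 in knockout arrays and at 9.51, 9.70 and 9.67 in control arrays, a difference of -1.36 (SE 0.38, limma adjusted p = 0.120). The groups did not overlap, control 74 was level with the others, and knockout 86 was far the lowest. Ppargc1a, which encodes PGC-1alpha, lay below the filter, at 6.14, 5.58 and 6.13 in knockout against 7.19, 7.05 and 6.68 in control arrays. Pprc1, which encodes another coactivator of this family, ran the other way, at 8.90, 8.63 and 9.35 in knockout against 8.36, 8.49 and 8.15 in control arrays, a difference of 0.63 (SE 0.21, limma adjusted p = 0.152). It was the 1 regulator on the higher side at an unadjusted p under 0.05. Twnk, the mitochondrial DNA helicase, differed by -0.45 and Polg2, a subunit of its polymerase, by -0.62 (limma adjusted p = 0.126 and 0.128). Nrf1 differed by -0.19, Gabpa by -0.14, Esrra by 0.15 and Yy1 by 0.13.

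The mitochondrial genome was represented by ND5, a complex I subunit encoded there, at 13.54, 13.65 and 13.52 in knockout and 13.82, 13.86 and 13.40 in control arrays, with overlapping groups. Of 13 glycolytic genes 9 were lower (69.2%), against 56.9% of all genes. At an unadjusted p under 0.05 by limma, 2 (15.4%) were lower, Ldhb and Pfkm, against 11.5% of all genes. Pfkm differed by -0.64 (limma adjusted p = 0.0747). Only 1 fell past the threshold, where 0.657% of all genes did: Ldhb, a subunit of lactate dehydrogenase. It stood at 9.18, 8.95 and 8.71 in knockout arrays and at 9.86, 10.02 and 9.73 in control arrays, a difference of -0.92 (SE 0.16), or 52.7% of control, with a limma adjusted p of 0.0388.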

How the data were processed

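Total RNA of 6 mice was hybridised to Affymetrix mouse arrays, and the authors deposited a linear intensity for each probe set. The authors' probe summary and array scaling are not given in the sources used here. Median intensity per array was 62.8 to 72.6, and with 3 arrays per group their number limits the precision. Correlations across genes were 0.945 to 0.969 among knockout arrays, 0.925 to 0.959 among control arrays and 0.877 to 0.940 between groups. No detection calls are in the table.

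Gene symbols came from the platform annotation of 2016: 34945 have 1 symbol, 932 several and 9160 none. Intensities were taken as log2(intensity + 1), which understates changes of dim genes, and quantile normalised. Probe sets of 1 symbol whose mean lay under the median of such means were left out, and the brightest probe set on average stood for its gene; levels of different probe sets are not comparable. Groups were compared with limma 3.58.1 (lmFit, eBayes, 2-sided) in R 4.3.3, with Benjamini-Hochberg adjustment over all 10654 genes, and the procedure was tested on simulated data. Differences are knockout minus control. Of all genes, 258 passed an adjusted p of 0.05, 188 higher and 70 lower. Of the probe sets used for members, 7 carry the suffix x and 14 the suffix s, which mark probes shared with other sequences or transcripts. Each array is a separate animal, with litters and days not stated.

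The members and the 19 gene lists were chosen with earlier results of these data known. The text names every member past the threshold, the 4 members of each complex with the smallest p, the isoform pairs, Ndufa4, Cox7a2l, Itgb1, and up to 3 genes per other list; the other core and catalytic head subunits, Cox6b1, Ndufa1, Ndufa3, Atp5g1, Atp5mpl, Cox7c, Ppargc1a, Pprc1, the other brown adipocyte markers and the motif factors were added after their values were seen. Promoters are from RefSeq. Alternatives were other filters, probe set rules, normalisations, pseudocounts and priors, array weights, marker covariates and leaving out each array.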

Additional observations from a re-analysis of the deposited data

How the results depend on the processing

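The median difference of the subunits stayed below 0 in every fit run, between -0.38 and -0.16 when each array was left out. With all 10 brown adipocyte markers as a covariate, added after the data were seen, it was -0.03, with complex I at -0.09, complex II at -0.09, complex III at 0.02, complex IV at -0.03 and the ATP synthase at 0.03. With only the 5 of them above the filter, also added, it was -0.34. The count of members past the threshold on the lower side was 0 with any array left out, 1 (Ndufs7) with median centring and 1 (Ndufs7) with a trended robust prior. It was 2 (Ndufs7 and Sdhc) with array weights, under which 1131 genes passed in all, and 3 (Ndufs7, Sdha and Sdhc) with the 5 brown adipocyte markers above the filter, under which 550 passed. The count on the higher side, Cox6b2 alone, was 0 with no filter, 0 with a filter at the 70th percentile, where Cox6b2 is not tested, and 0 with the macrophage covariate or that of all 10 brown adipocyte markers. It was 0 to 1 when each array was left out, being 0 without knockout 72, 73 or 86 and without control 30 or 75. Sdhd, between -0.35 and 0.22 when each array was left out, turned to 0.11 with array weights, 0.10 with the white adipocyte covariate, 0.22 without control 74 and 0.49 with all 10 brown adipocyte markers. Cycs, between -0.48 and 0.12, turned to 0.12 with array weights, 0.12 without control 74 and 0.28 with all 10 brown adipocyte markers, under which Sdhb was at 0.15, Ndufa4 at 0.04 and Cox4i1 at 0.06. Cox7a2l, between -0.30 and 0.07, turned to 0.03 without knockout 86, 0.02 without control 30 and 0.07 without control 75. Beyond fewer arrays or genes, the cause was not tested. No paired analysis was possible because the groups share no animal numbers. With 3 arrays per group and no detection calls, changes of dim genes are the least certain.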

Other observations

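A further 10 probe sets carry several gene symbols, one of them a subunit, and were left out of the comparisons by gene. Of these, 7 lay above the filter, and 7 of the 7 were lower in knockout arteries, with log2 differences between -0.49 and -0.12. By limma 0 of them passed an adjusted p of 0.05, and their lowest unadjusted p was 0.0245. Among the 142 member probe sets above the filter, each taken on its own, 137 were lower and 5 higher. Of the 44 genes with several such probe sets, 42 had all of them lower.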
